A study of Arabidopsis thaliana with 9 samples.

Results

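The transcriptome described is that of wild type leaves of the Arabidopsis thaliana accession Shahdara at 9 weeks, measured in 3 of the 9 RNA sequencing libraries of the series. Members were chosen by sample title: the columns of the 3 libraries titled as wild type, called WT1, WT2 and WT3, across all 32833 listed features, of which 28419 have annotated exons. The other 6 libraries come from 2 lines made in the same accession, 3 labelled as an IAA26 stable line and 3 labelled as an IAA26 knockout line, also from leaves of 9 week old plants. The labels give the wild type as the control and call both lines mutants, with no allele, transgene or promoter described. IAA26 is a repressor of auxin-responsive transcription. It stood at 17.5, 18.5 and 20.3 RPKM in WT1, WT2 and WT3, against 12.7, 9.81 and 10.3 RPKM in the stable line and 16.7, 17.2 and 12.4 RPKM in the knockout-labelled line. All 9 libraries held IAA26 reads, so the label of the knockout line is used here as a name only, and each wild type value lay above every value of both lines. The log2 difference from the mean of the lines was 0.55 (SE 0.10, adjusted p = 0.0199) in the edgeR fit (quasi-likelihood, adjusted by Benjamini-Hochberg).

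A mature leaf is built around chloroplasts. Nuclear genes encode the chlorophyll-binding antenna proteins, most photosystem subunits, the small subunit of Rubisco and the enzymes of the Calvin cycle, while the chloroplast genome encodes the reaction centre proteins and the large subunit of Rubisco. Photorespiration recycles the by-product that Rubisco makes when it fixes oxygen, and Brassicaceae leaves also store glucosinolates with the myrosinases that split them. Flavonoid pigments, jasmonate-responsive defensins and stress proteins are made in response to light, wounding and attack.

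The libraries held 34325905, 45346301 and 37631865 exon reads in WT1, WT2 and WT3, of which 97.2% to 97.4% were unique, against 28585976 to 36684424 in the other 6. Levels are given in RPKM, the deposited reads scaled to exon length and library size, so that genes of different length can be compared. In WT1, WT2 and WT3, 21831, 22001 and 21689 genes had at least 1 exon read, and 15963 genes had 1 RPKM or more in all 3. Mean levels reached 5 RPKM for 12389 genes, 100 RPKM for 856 genes and 1000 RPKM for 46 genes. For a gene of median exon length, 1525 bases, 3 reads corresponded to 0.0534, 0.0410 and 0.0487 RPKM, and a count of 0 allows a level up to this value, for counting error only. Whether the libraries came from separate plants is not given beyond the label of biological replicate, so SDs and p-values measure the spread between these libraries, which may in part be technical.

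The most abundant transcripts served photosynthesis. Of the 25 genes with annotated exons and the highest mean level, 18 belonged to the lists of antenna, photosystem and Calvin cycle genes, 11 of them antenna genes, 3 photosystem genes and 4 Rubisco or Calvin cycle genes. The 25 genes together took 9.08% of exon reads. RCA, Rubisco activase, which frees the active site of Rubisco from inhibitory sugar phosphates, led with 6238, 5884 and 7235 RPKM in WT1, WT2 and WT3. The small subunit gene RBCS1A had 3366, 3403 and 3467 RPKM in WT1, WT2 and WT3, and RBCS2B had 2117, 1822 and 1632 RPKM in WT1, WT2 and WT3. RBCS1A was nearly level across the 3, RCA was highest in WT3 and RBCS2B was lowest there.

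Among genes of photosystem II, PSBR, a subunit of the oxygen-evolving side, had 4329.5, 4716 and 4626 RPKM in WT1, WT2 and WT3, and PSBO1, which stabilises the manganese cluster, had 1476, 1508 and 1303 RPKM in WT1, WT2 and WT3. The antenna gene LHCB1.3 had 4857, 5144 and 2683 RPKM in WT1, WT2 and WT3. LHCB1.5 had 6287, 6985 and 5376 RPKM in WT1, WT2 and WT3, but only 0.00183% of its exon reads were counted as unique, so its level is uncertain. The other LHCB1 genes had 98.6% or more of their reads unique. LHCA4 and LHCA1 carry the photosystem I antenna and had 2818, 3262 and 2286 RPKM in WT1, WT2 and WT3 and 2438, 2705 and 2077 RPKM in WT1, WT2 and WT3. Each of these 4 antenna genes was lowest in WT3 and highest in WT2.

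Promoter sequences of leading genes are shown because the abundant photosynthesis genes are known for light-responsive elements near their starts. The letters are the 250 bases before the annotated start, from RefSeq TAIR10.1, the build of the table's positions, read 5′ to 3′ on the gene's strand. Capitals mark CACGTG, the G-box core, and GATAAG, the I-box, or its reverse complement CTTATC. The regions are chr2:16573693-16573942, minus strand for RCA, chr3:17495034-17495283, minus strand for LHCA4 and chr5:15382072-15382321, minus strand for RBCS2B.
RCA: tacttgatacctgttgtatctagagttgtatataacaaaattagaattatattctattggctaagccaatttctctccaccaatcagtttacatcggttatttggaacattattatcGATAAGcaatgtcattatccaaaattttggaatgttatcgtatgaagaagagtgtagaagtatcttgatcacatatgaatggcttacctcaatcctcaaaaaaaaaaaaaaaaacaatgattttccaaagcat
LHCA4: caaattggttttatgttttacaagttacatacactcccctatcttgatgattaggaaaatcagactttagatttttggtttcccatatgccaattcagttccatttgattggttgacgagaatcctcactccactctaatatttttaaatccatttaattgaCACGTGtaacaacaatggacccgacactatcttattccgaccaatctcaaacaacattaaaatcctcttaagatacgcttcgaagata
RBCS2B: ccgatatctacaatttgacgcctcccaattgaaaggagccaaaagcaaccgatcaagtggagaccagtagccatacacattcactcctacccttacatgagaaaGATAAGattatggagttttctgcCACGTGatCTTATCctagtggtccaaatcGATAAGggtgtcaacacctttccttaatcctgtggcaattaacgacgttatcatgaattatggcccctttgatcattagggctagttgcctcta
RCA held a single GATAAG, 133 bases before the start. LHCA4 held a single CACGTG, 88 bases before it. RBCS2B held CACGTG 123 bases before the start with GATAAG at 94, 115 and 146 bases, both orientations counted. All genes shown hold at least 1 of the 2 motifs. Other leading genes, such as LHCB1.5, PSBR, LHCB1.3 and RBCS1A, held neither.

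Searched on both strands, CACGTG lay in the 250 bases before 19 of the 100 most abundant nuclear genes, and in 6.49% of the 27431 promoters of protein-coding genes in the table. GATAAG lay before 26 of the 100, against 12.3% of all promoters. AAAATATCT, the evening element of clock-regulated genes, lay before 1 of the 100 against 2.36%, and TATAAA before 41 of the 100 against 47.3%. Each motif was counted on its own, also where matches of different motifs overlapped. A match describes the letters of the window and says nothing of whether a factor bound there.

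**Figure D1:**
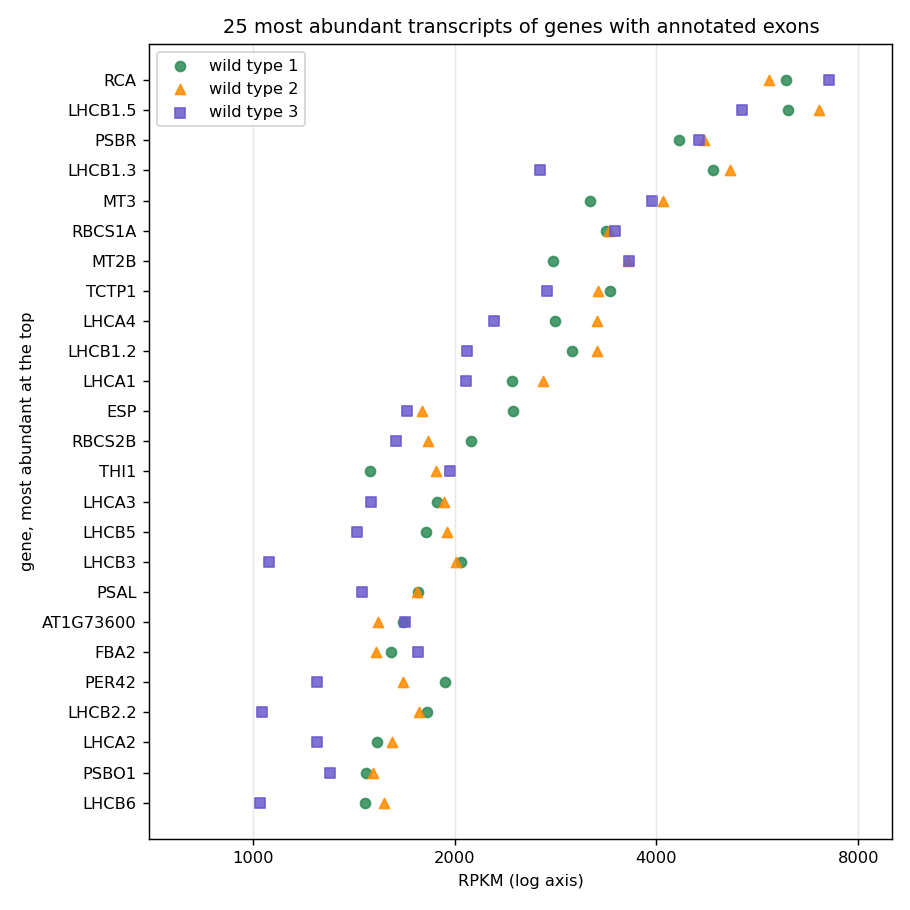
Level in RPKM (log axis) of the 25 most abundant genes with annotated exons, most abundant at the top, with 1 point for each of the 3 wild type libraries. RCA is at the top with 5884 to 7235 RPKM, and WT3 is the lowest of the 3 points for every antenna gene shown.

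The other 7 leading genes lay outside the photosynthesis lists. The metallothioneins MT3 and MT2B, small cysteine-rich proteins that bind copper and zinc, had 3186, 4084 and 3933 RPKM in WT1, WT2 and WT3 and 2801, 3630.1 and 3638 RPKM in WT1, WT2 and WT3. TCTP1, a conserved protein linked to growth, had 3411, 3277 and 2748 RPKM in WT1, WT2 and WT3, and THI1, which makes the thiazole part of thiamine, had 1493, 1874 and 1970.5 RPKM in WT1, WT2 and WT3. ESP, the epithiospecifier protein that steers glucosinolate breakdown toward nitriles, had 2445, 1788 and 1699 RPKM in WT1, WT2 and WT3. Both metallothioneins and THI1 were lowest in WT1, while ESP was highest there. The others were PER42, a peroxidase, at 1618 ± 347 RPKM (SD, n = 3), and AT1G73600, annotated as a methyltransferase, at 1632 ± 84.0 RPKM (SD, n = 3).

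None of the 25 passed the test of wild type against the mean of the 2 lines, fitted with edgeR and called at an adjusted p of 0.05, where 5.17% of the 19409 genes tested were called, 2.48% higher and 2.69% lower. Before adjustment 4 of the 25 had a p under 0.05, and DESeq2 called 4. Over all 19409 genes tested 4055 had such a p, and DESeq2 called 1245 higher and 1114 lower. Among the 100 leading nuclear genes 8 were higher and 0 lower. Before adjustment 26 of the 100 had a p under 0.05, and DESeq2 called 22, to be read beside the same counts over all genes. The 8 higher genes were the defensin PDF1.2C, the aquaporins PIP2-1 and PIP1B, GLDP1, CAT2, FBA1, VTC2, the first committed enzyme of vitamin C synthesis, and IPS1_2, which makes myo-inositol phosphate. PIP2-1 had 1258, 1014 and 1116 RPKM in WT1, WT2 and WT3, against 565, 646 and 687 RPKM in the stable line and 766, 710.0 and 763 RPKM in the knockout-labelled line, and VTC2 had 947, 510.4 and 799 RPKM in WT1, WT2 and WT3, against 322, 197 and 187 RPKM in the stable line and 488, 496 and 343 RPKM in the knockout-labelled line, with no overlap for either gene. The 100 were picked by wild type level, so their count is a description. They took 20.1%, 19.4% and 18.6% of exon reads in WT1, WT2 and WT3 when ranked within each library. That share averaged 19.4 ± 0.754% (SD, n = 3) in the wild type and 19.3 ± 2.69% (SD, n = 6) in the lines, a difference smaller than the spread (exact two-sided permutation p = 0.976, adjusted over 3 tests 0.976).

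**Figure D2:**
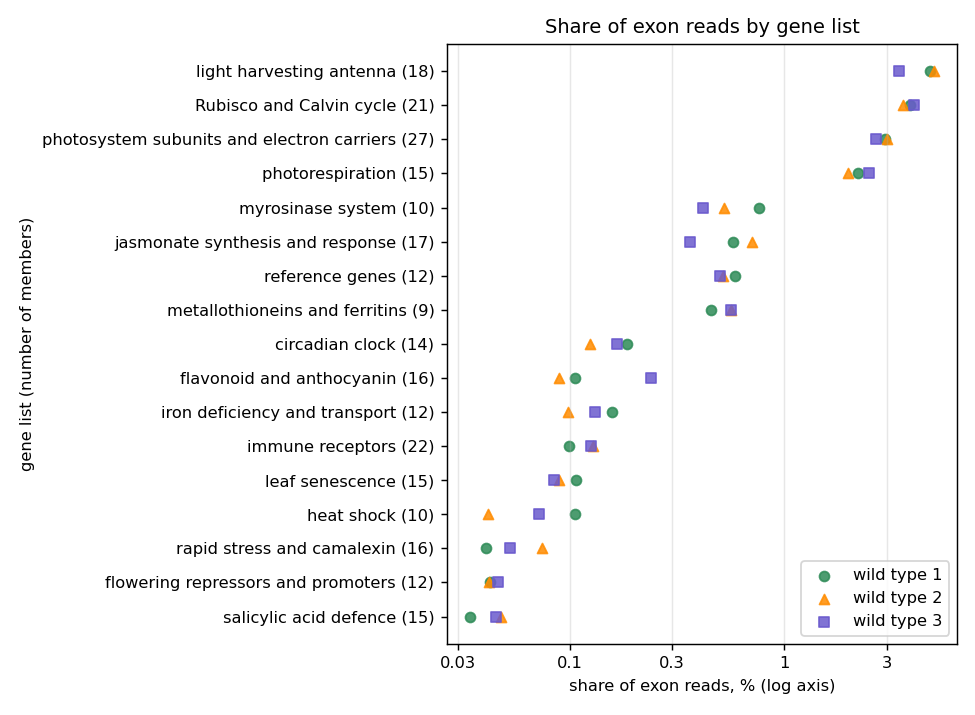
Share of exon reads in percent (log axis) taken by each gene list, with the number of members in parentheses and 1 point for each of the 3 wild type libraries. The antenna list takes 3.42% to 4.99%, and the flavonoid list takes 0.239% in WT3 against 0.106% in WT1 and 0.0891% in WT2.

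All 18 antenna genes, 27 photosystem and electron carrier genes, 21 Rubisco and Calvin cycle genes and 15 photorespiration genes stood at 1 RPKM or more in all 3 libraries. The antenna list took 4.74%, 4.99% and 3.42% of exon reads in WT1, WT2 and WT3, and 17 of its 18 members were highest in WT1 or WT2. Photorespiration went the other way, with 2.20%, 1.98% and 2.47%, and 13 of its 15 members were highest in WT3. The Calvin cycle list took 3.85%, 3.55% and 4.01%, and the photosystem list 2.94%, 3.00% and 2.66%. The antenna share was thus lowest and the photorespiration share highest in the same library.

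Within the antenna list, levels ran from 8.50 RPKM for LHCB4.3 to 6216 RPKM for LHCB1.5. The widest spread among libraries was that of LHCB1.4, with 29.7, 30.5 and 3.30 RPKM in WT1, WT2 and WT3, and of LHCB2.3, with 252, 223 and 49.6 RPKM in WT1, WT2 and WT3. Both were low in WT3 alone. Of the 18 members 0 were called against the lines, 0 had an unadjusted p under 0.05 and DESeq2 called 0. Of the 27 photosystem genes 0 were called by either tool and 1 had an unadjusted p under 0.05, against 4055 of all 19409 genes tested. The summed antenna level was 35148, 37568 and 25326 RPKM in WT1, WT2 and WT3, against 25933 to 61060.2 RPKM in the stable line and 26716 to 42899 RPKM in the knockout-labelled line, so WT3 was the lowest of all 9 libraries.

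In photorespiration 3 of 15 genes rose relative to the lines and 0 fell, beside 2.48% called higher and 2.69% lower over all genes tested. The list was chosen with earlier results of these data known, so the count is a description. CAT2, the catalase that removes peroxisomal hydrogen peroxide, had 1141, 861 and 1237 RPKM in WT1, WT2 and WT3, against 673, 441 and 478 RPKM in the stable line and 707, 701 and 606 RPKM in the knockout-labelled line, a log2 difference of 0.88 (SE 0.15, adjusted p = 0.0183). GLDP1 and GLDP2, the P-proteins of glycine decarboxylase, had log2 differences of 0.84 (SE 0.18, adjusted p = 0.0368) and 0.71 (SE 0.11, adjusted p = 0.0109). The groups did not overlap for any of the 3. In the Calvin cycle list FBA1, an aldolase, was the 1 of 21 that rose, by 0.63 (SE 0.12, adjusted p = 0.0266). The CAT2 call was lost without WT1 (adjusted p = 0.0716) or WT3 (0.0759), that of GLDP2 without WT3 (0.0504), and those of GLDP1 and FBA1 without any of several libraries, with a largest adjusted p of 0.143 and 0.111.

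Transcripts of the organelle genomes took little of the exon reads, 0.325% to 0.352% for the chloroplast and 0.0109% to 0.0150% for mitochondria. These are shares of library reads, and the share of organelle RNA in the leaf itself was not measured. Features without annotated exons, 4414 in all, have a level in the table that comes from gene reads, and 667 of them had reads. The chloroplast ribosomal RNAs RRN23S.1 and RRN16S.1 had 3883, 2699 and 4487 RPKM in WT1, WT2 and WT3 and 3305, 1805 and 2944 RPKM in WT1, WT2 and WT3. The ATP synthase gene ATPB had 449.8, 455 and 401 RPKM in WT1, WT2 and WT3, RPL16_2, a ribosomal protein gene, 391, 409 and 398 RPKM in WT1, WT2 and WT3, and RPS3, of the same function, 245, 247 and 252 RPKM in WT1, WT2 and WT3. Both rRNAs were lowest in WT2, while the 3 protein genes were close to level. Together 15 rRNA features took 2.64%, 1.69% and 2.82% of gene reads in WT1, WT2 and WT3.

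Guard cell, phloem and epidermis markers were present, and those of seed and root were at or near 0. All 5 guard cell markers and all 7 phloem markers stood at 1 RPKM or more in all 3 libraries, as did 4 of 5 epidermis and cuticle markers. The leading phloem markers were SWEET11, a sugar exporter, with 223, 181 and 199 RPKM in WT1, WT2 and WT3, SUC2, the companion cell sucrose transporter, with 112, 141 and 127 RPKM in WT1, WT2 and WT3, and PP2-A1, a phloem lectin, with 108, 131 and 126 RPKM in WT1, WT2 and WT3. CER6, an enzyme of cuticular wax synthesis, had 217, 155 and 143 RPKM in WT1, WT2 and WT3. SWEET11 rose relative to the lines by 0.93 (SE 0.13, adjusted p = 0.00876) with no overlap, and CER6 by 0.70 (SE 0.13, adjusted p = 0.0227) with overlap. In bulk tissue, fewer cells of a type and less RNA per cell cannot be told apart.

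Of the xylem markers 1 of 7 reached 1 RPKM in all 3 libraries, XCP2, a protease of vessel elements, with 5.08, 4.50 and 2.30 RPKM in WT1, WT2 and WT3. The summed level of the 7 was 11.4, 10.7 and 4.50 RPKM in WT1, WT2 and WT3. Trichome markers reached it in 2 of 4 and flower markers in 2 of 5, SEP3 at 1.78 ± 0.814 RPKM (SD, n = 3) and AG at 1.66 ± 0.359 RPKM (SD, n = 3). Of 6 pollen markers, 12 seed markers, 12 root markers and 8 markers of meristems and dividing cells none did. PPME1, HTR10 and LCR17 of the pollen list had 0 reads in all 3 libraries.

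In the seed list 9 of 12 had 0 reads: the storage protein genes CRA1, CRU3, SESA1, SESA2, SESA3 and SESA4, the oil body gene OLEO1 and the regulators LEC1 and ABI3. In the root list 6 of 12 had 0 reads, among them the stem cell regulators PLT1, PLT2 and WOX5, the root hair expansin EXPA7 and CASP5, a gene of the Casparian strip. The meristem regulators WUS and CLV3 had 0 reads. The highest marker of these 4 lists was CYCB1-1, a mitotic cyclin, with 0.950, 0.845 and 2.05 RPKM in WT1, WT2 and WT3. The defining markers of seed, root and shoot meristem were thus at or near 0.

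**Figure D3:**
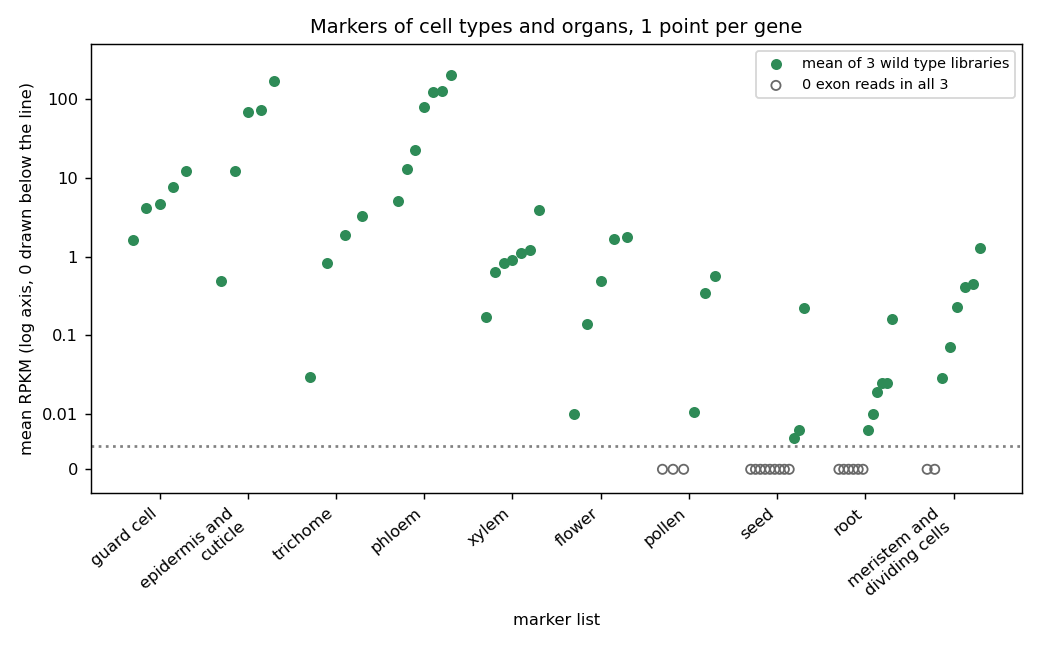
Mean level over the 3 wild type libraries in RPKM (log axis) of each marker gene, grouped by marker list, with genes at 0 exon reads drawn as open circles below the dotted line. Phloem and epidermis markers reach above 100 RPKM, and 9 seed, 6 root, 3 pollen and 2 meristem markers sit at 0.

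No exon read was found in any wild type library for 5448 genes with annotated exons, 19.2% of 28419. Among protein-coding genes the count was 5007 of 27432, or 18.3%. Their median exon length was 711.5 bases, against 1703 bases for genes with a read, so that they were shorter as a group. In the other 6 libraries 3969 of the 5448 also had no read, 1479 had reads and 144 had more than 10.

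Undetected genes were concentrated in some families, counted by key words of the annotated product. ECA1 gametogenesis proteins, secreted cysteine-rich proteins of the egg and embryo sac, were undetected in 80 of 81 cases (98.8%). S-protein homologues of self-incompatibility were undetected in 60 of 70 (85.7%) and defensin-like proteins in 159 of 188 (84.6%). F-box proteins, which select proteins for degradation, were undetected in 344 of 652 (52.8%), RALF-like peptides in 17 of 35 (48.6%) and MADS-box proteins in 45 of 120 (37.5%). Genes matched by key words of pectin enzymes, not all of which need be enzymes, were undetected in 87 of 239 (36.4%). At the other end stood 0 of 79 photosystem and chlorophyll-binding proteins, 17 of 344 ribosomal proteins (4.94%) and 19 of 282 pentatricopeptide repeat proteins (6.74%), which edit and process organelle RNA. Between them lay cytochromes P450 (53 of 239, 22.2%), NB-LRR disease resistance proteins (19 of 158, 12.0%), protein kinases (85 of 837, 10.2%) and WRKY transcription factors (7 of 72, 9.72%).

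Families with many silent members still held single abundant genes. SVP, a MADS-box repressor of flowering, had 120.0, 109.9 and 117 RPKM in WT1, WT2 and WT3, and CYP83A1, a P450 of glucosinolate synthesis, averaged 661 RPKM. Peroxidases, the family of PER42, had no read in 12 of 67 cases (17.9%), close to the 18.3% of all protein-coding genes. The chloroplast and mitochondrial genomes held 219 features with exons, of which 40 had no exon read.

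A count of 0 can reflect the counting. Of the 5448 genes, 259 (4.75%) lay with at least 50% of their span inside another gene at 1 RPKM or more, against 729 (2.57%) of all genes with exons. MT1A is an example: this metallothionein gene had 0 reads in all 9 libraries and lies wholly inside AT1G07590, which had 672, 824 and 931 RPKM in WT1, WT2 and WT3. Reads of the pair cannot be told apart, and the level of MT1A is not known from these data. AT1G55673 also had 0 reads in the wild type and lies inside the photosystem gene PSAG. It had 2578 reads in stable line replicate 2 and 0 in the other 5 libraries of the lines.

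The other 9 undetected genes with the highest mean in the lines drew almost all of their reads from the library labelled knockout replicate 3. AT5G22430, annotated as a pollen allergen family protein, had 0 reads in the wild type and 420 reads in that library, with 0 in the other 5. GRP20 and GRP16, glycine-rich proteins of the pollen coat, had 190 and 123 reads there and 0 in the other 8 libraries, and FLA3 had 116. AT1G06350, AT3G28980, AT1G68875, BGLU20 and TSM1 had 103 to 328 reads there and at most 2 in any other library. The summed level of the 6 pollen markers was 17.7 RPKM in that library, against 0.669 to 1.10 RPKM in the wild type. Its part in these differences was not tested.

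The 3 libraries differed little for most genes. The spread is given as the SD of log2(CPM + 1) over the 3 libraries, where CPM are exon read counts scaled to library size by TMM and fold ranges include the 1 CPM added. Over the 12389 genes at 5 RPKM or more, the median SD was 0.12 in the wild type, 0.16 in the stable line and 0.11 in the knockout-labelled line, and counting error alone would give 0.04. A range of 2-fold or more was found for 690 genes (5.57%), of 4-fold or more for 132 (1.07%) and of 10-fold or more for 31. With a 4-fold range there were 172 genes in the stable line and 65 in the knockout-labelled line. WT1 and WT3 differed 4-fold for 109 genes, WT1 and WT2 for 56 and WT2 and WT3 for 35. Without WT1 the 132 fell to 35, without WT3 to 56.

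**Figure D4:**
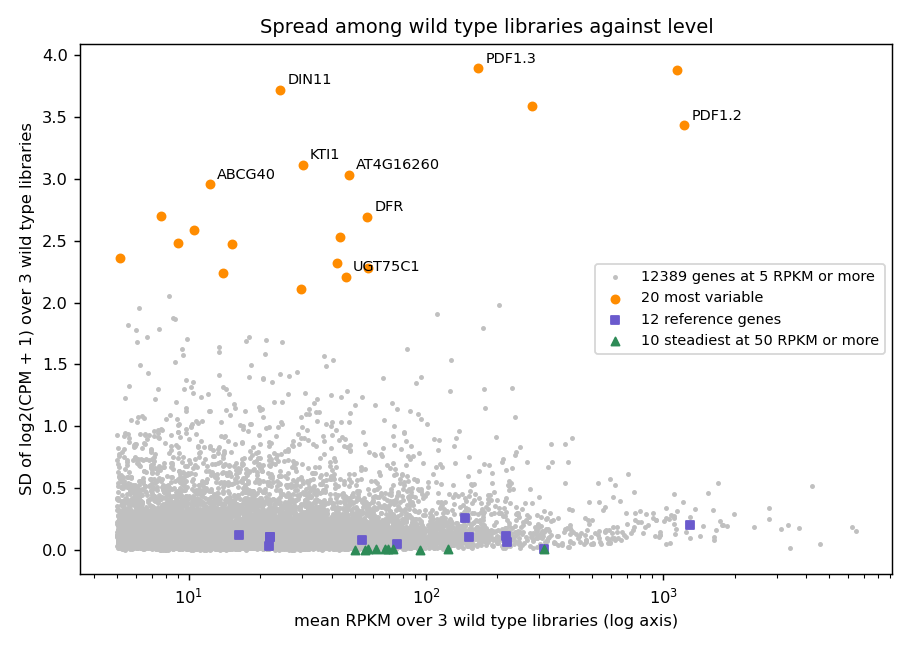
SD of log2(CPM + 1) over the 3 wild type libraries against mean level in RPKM (log axis), with 1 point per gene at 5 RPKM or more and the 20 most variable, the 12 reference genes and the 10 steadiest genes marked. The defensin genes reach an SD of 3.43 to 3.89, and the 12 reference genes have a median of 0.10.

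The most variable genes were defensins that were high in WT1 and WT2 and low in WT3. PDF1.2, the standard marker of combined jasmonate and ethylene signalling, had 1491, 2155 and 27.8 RPKM in WT1, WT2 and WT3 (SD 3.43), and its neighbour on chromosome 5, PDF1.2C, had 1424, 1997 and 14.5 RPKM in WT1, WT2 and WT3 (SD 3.88). On chromosome 2, PDF1.2B had 350.0, 483 and 4.10 RPKM in WT1, WT2 and WT3 and its neighbour PDF1.3 had 331, 167 and 0.798 RPKM in WT1, WT2 and WT3. In WT1 and WT2 each of the 4 stood above every library of the lines, and in WT3 each stood inside the range of the lines.

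In the lines PDF1.2 had 3.72, 26.9 and 164 RPKM in the stable line and 26.3, 8.39 and 66.3 RPKM in the knockout-labelled line. PDF1.3 had 0.579, 1.08 and 14.3 RPKM in the stable line and 0.228, 0.167 and 0.895 RPKM in the knockout-labelled line. PDF1.3 and PDF1.2C rose relative to the lines, by 6.76 (SE 1.48, adjusted p = 0.0400) and 5.49 (SE 1.28, adjusted p = 0.0477), although WT3 overlapped the lines, and the same holds for AT4G16260, a glycosyl hydrolase with 116, 24.9 and 1.20 RPKM in WT1, WT2 and WT3 and a difference of 4.43 (SE 1.01, adjusted p = 0.0449). Each of the 3 calls was lost without WT1 (adjusted p = 0.127, 0.125 and 0.217) and without WT2 (0.0787, 0.113 and 0.0713), and also without most libraries of the lines. PDF1.2 and PDF1.2B were not called (adjusted p = 0.0821 and 0.0623).

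Promoter sequences of 2 of the defensin genes are shown because they hold GCCGCC, the core of the GCC box bound by ethylene response factors such as ORA59. This motif was added after the values had been seen. Capitals mark GCCGCC, and the sequences are from the same source as above. The regions are chr5:17907639-17907888, minus strand for PDF1.2 and chr2:11088873-11089122, plus strand for PDF1.2B.
PDF1.2: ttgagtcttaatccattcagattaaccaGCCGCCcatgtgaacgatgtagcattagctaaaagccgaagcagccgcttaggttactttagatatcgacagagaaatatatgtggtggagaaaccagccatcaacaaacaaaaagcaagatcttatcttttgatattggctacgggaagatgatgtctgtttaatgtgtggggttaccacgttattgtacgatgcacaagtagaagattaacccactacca
PDF1.2B: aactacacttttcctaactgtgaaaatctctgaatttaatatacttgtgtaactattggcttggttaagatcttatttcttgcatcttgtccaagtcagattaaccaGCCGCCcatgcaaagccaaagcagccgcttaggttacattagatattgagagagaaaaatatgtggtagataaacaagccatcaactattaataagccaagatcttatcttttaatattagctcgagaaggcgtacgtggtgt
GCCGCC lay 222 bases before the start of PDF1.2 and 143 bases before that of PDF1.2B. It was not found in the 250 bases before PDF1.2C or PDF1.3. It lay before 4 of the 20 most variable genes, 3 of the 32 genes with a 4-fold range that were low in WT3, and 1.87% of all promoters, both strands searched. It also lay in 3 of 38 promoters of genes high in WT1 and 0 of 16 of genes high in WT3. The first 2 counts include PDF1.2 and PDF1.2B, for which the motif is shown, so they are a description. ORA59 itself had 36.6, 56.4 and 18.8 RPKM in WT1, WT2 and WT3, a much narrower range than that of the defensins. A link between the 2 was not tested.

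Other genes with a 4-fold range were also low in WT3, and the 4 defensins were among 32 such genes in all. HEL, the chitin-binding PR4, had 264, 231 and 28.0 RPKM in WT1, WT2 and WT3, and the legume lectin gene LEC had 297, 284 and 26.3 RPKM in WT1, WT2 and WT3. NATA1, which acetylates ornithine in the jasmonate response, had 226, 90.6 and 16.0 RPKM in WT1, WT2 and WT3, and the myrosinase TGG2 had 400.3, 222 and 67.3 RPKM in WT1, WT2 and WT3. The cell wall genes EXPA8, an expansin, and XTH6, a xyloglucan-modifying enzyme, had 21.8, 16.4 and 3.44 RPKM in WT1, WT2 and WT3 and 54.8, 27.7 and 11.5 RPKM in WT1, WT2 and WT3. The histone genes HTR2_1, HTR2_5 and HTA6 had 10.4, 14.1 and 2.01, 21.1, 25.5 and 5.13 and 8.32, 14.4 and 2.32 RPKM in the same order of libraries. ACT, an acyltransferase, had 48.7, 37.2 and 2.94 RPKM in WT1, WT2 and WT3. WT3 was the lowest in all of these, and LEC was called higher than the lines (log2 difference 3.46 (SE 0.79, adjusted p = 0.0449)).

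In the opposite direction, 16 genes with a 4-fold range were high in WT3, and 8 of them were members of the flavonoid and anthocyanin list. DFR and LDOX, the enzymes that turn dihydroflavonols into anthocyanidins, had 3.43, 11.9 and 155 RPKM in WT1, WT2 and WT3 and 3.45, 8.60 and 118 RPKM in WT1, WT2 and WT3. GSTF12, needed to bring anthocyanins into the vacuole, had 4.51, 9.40 and 113 RPKM in WT1, WT2 and WT3. The decorating enzymes UGT75C1, UF3GT and 5MAT had 6.58, 10.3 and 121, 1.55, 2.87 and 37.6 and 1.17, 2.53 and 42.1 RPKM in the same order. The regulator PAP2 had 2.82, 5.79 and 22.7 RPKM in WT1, WT2 and WT3 and the hydroxylase F3PRIMEH 0.915, 1.39 and 16.2 RPKM in WT1, WT2 and WT3. All 8 were lowest in WT1 and highest in WT3.

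Early and late flavonoid genes differed in spread. CHS, which starts flavonoid synthesis, had 183, 173 and 317 RPKM in WT1, WT2 and WT3 (SD 0.48), and PAL1 and C4H, which feed it, had 42.1, 34.9 and 44.5 RPKM in WT1, WT2 and WT3 and 88.0, 64.1 and 74.6 RPKM in WT1, WT2 and WT3 (SD 0.19 and 0.24). CHI had 38.0, 41.0 and 67.8 RPKM in WT1, WT2 and WT3 and F3H 95.0, 67.3 and 158 RPKM in WT1, WT2 and WT3, the last with 42.9% of reads unique. The late genes also varied within both lines. DFR had 101, 0.942 and 1.48 RPKM in the stable line and 60.8, 267 and 5.20 RPKM in the knockout-labelled line, so that 1 library of the stable line and 2 of the knockout-labelled line were high. No late gene was called against the lines, and PAL1 and C4H rose, by 1.52 (SE 0.21, adjusted p = 0.00769) and 1.10 (SE 0.11, adjusted p = 0.00254), with no overlap.

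The promoter of DFR is shown for its CACGTG, which lies 14 bases before the start and is marked in capitals. The region is chr5:17166033-17166282, minus strand.
DFR: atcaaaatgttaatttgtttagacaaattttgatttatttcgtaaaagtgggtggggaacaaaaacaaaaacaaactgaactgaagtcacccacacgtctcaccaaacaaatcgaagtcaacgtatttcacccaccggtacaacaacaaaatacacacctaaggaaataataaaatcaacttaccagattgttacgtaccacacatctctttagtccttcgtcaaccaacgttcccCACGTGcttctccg
CACGTG lay before 5 of the 16 genes high in WT3, and LDOX held none of the motifs searched in its 250 bases. The share in all promoters is given above.

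The other 8 genes high in WT3 included ELIP1 and ELIP2, early light-induced proteins that protect against excess light, with 39.0, 37.1 and 209 RPKM in WT1, WT2 and WT3 and 3.26, 6.79 and 19.2 RPKM in WT1, WT2 and WT3. LSU1 and SDI1, markers of sulfur limitation, had 14.2, 18.1 and 72.1 RPKM in WT1, WT2 and WT3 and 8.93, 9.14 and 49.1 RPKM in WT1, WT2 and WT3. ERF105, an ethylene response factor gene, had 0, 0 and 15.5 RPKM in WT1, WT2 and WT3. None of its reads was unique, and the gene overlaps AT5G51180, so that its level is uncertain. LURP1, MSRB5 and GGCT2_3 had 22.0, 47.5 and 114, 16.6, 32.4 and 70.7 and 2.25, 4.24 and 12.6 RPKM in WT1, WT2 and WT3.

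WT1 stood apart for most of the remaining genes, with 39 high and 35 low there. DIN11, a dioxygenase gene known from dark-treated and wounded leaves, had 72.4, 0.529 and 0.0643 RPKM in WT1, WT2 and WT3, and the transporter gene ABCG40 had 35.0, 1.21 and 0.597 RPKM in WT1, WT2 and WT3. KTI1, a trypsin inhibitor, had 85.5, 4.68 and 0.459 RPKM in WT1, WT2 and WT3, OSM34, an osmotin, 30.1, 1.02 and 0.309 RPKM in WT1, WT2 and WT3, and GSTU3, a glutathione transferase, 25.8, 0.895 and 0.254 RPKM in WT1, WT2 and WT3. BGLU30, a glucosidase, had 20.5, 2.35 and 0.106 RPKM in WT1, WT2 and WT3. None of these 6 was called against the lines. WT1 alone stood above the range of the lines for DIN11, KTI1, OSM34 and BGLU30, and WT1 and WT2 did for ABCG40 and GSTU3.

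The camalexin genes CYP71A13 and PAD3, which make the indole phytoalexin of Arabidopsis, were also highest in WT1, with 22.4, 2.21 and 1.61 RPKM in WT1, WT2 and WT3 and 48.5, 5.95 and 8.23 RPKM in WT1, WT2 and WT3. They rose relative to the lines by 3.60 (SE 0.84, adjusted p = 0.0475) and 3.20 (SE 0.60, adjusted p = 0.0230), with overlap. Without WT1 the call of CYP71A13 was lost (adjusted p = 0.219), and that of PAD3 was kept (0.0153). Without any 1 of stable line replicates 2 and 3 and the 3 knockout-labelled libraries both calls were lost, with adjusted p of 0.0566 to 0.122. The receptor kinase gene FRK1 was the other member of the rapid stress list to rise, by 1.68 (SE 0.38, adjusted p = 0.0457), a call lost without WT2 (adjusted p = 0.114), WT3 (0.176) and 5 libraries of the lines. SAG12 and SAG13, senescence-associated genes, had 12.1, 1.61 and 0.322 RPKM in WT1, WT2 and WT3 and 146, 49.6 and 31.0 RPKM in WT1, WT2 and WT3.

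Genes low in WT1 included BXL1 and BGAL1, a beta-xylosidase and a beta-galactosidase known as sugar-repressed cell wall enzymes, with 16.2, 120.5 and 113 RPKM in WT1, WT2 and WT3 and 27.6, 184 and 172 RPKM in WT1, WT2 and WT3. ERF061, AT1G02610, a RING finger gene, and AT5G28610 had 2.74, 20.5 and 30.9, 1.47, 13.1 and 13.9 and 1.05, 13.8 and 11.4 RPKM in WT1, WT2 and WT3. The defence regulators WRKY53 and WRKY18 had 4.16, 19.6 and 29.9 RPKM in WT1, WT2 and WT3 and 8.09, 49.7 and 21.0 RPKM in WT1, WT2 and WT3. WT1 was the lowest library in each.

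WT2 was high alone for 9 genes with a 4-fold range and low alone for 1, the gene AT2G41730 with 9.43, 3.98 and 19.4 RPKM in WT1, WT2 and WT3. OPR3 and LOX3, enzymes of jasmonate synthesis, had 81.5, 355 and 96.8 RPKM in WT1, WT2 and WT3 and 6.93, 44.7 and 10.3 RPKM in WT1, WT2 and WT3. TCH3, a touch-induced calmodulin-like gene, had 20.4, 139 and 38.4 RPKM in WT1, WT2 and WT3, and CPK28, a calcium-dependent kinase, 12.7, 56.4 and 20.3 RPKM in WT1, WT2 and WT3. ERD7, a dehydration-induced gene, had 13.4, 65.4 and 14.0 RPKM in WT1, WT2 and WT3, and AT1G11960, annotated as a protein of an early dehydration response family, 5.95, 31.1 and 7.29 RPKM in WT1, WT2 and WT3. All 3 libraries of the stable line stood above WT1 and WT3 for each of these 6 genes. Among genes that stood furthest below in WT2 were the chaperones HSP90.1 and HSP23.5, with 35.3, 14.3 and 33.1 RPKM in WT1, WT2 and WT3 and 7.94, 1.63 and 7.59 RPKM in WT1, WT2 and WT3, UGT84A2, a sinapate glucosyltransferase, with 40.8, 18.3 and 48.2 RPKM in WT1, WT2 and WT3, BT1_2 with 53.8, 21.7 and 48.7 RPKM in WT1, WT2 and WT3 and AT4G27657 with 15.7, 5.03 and 16.2 RPKM in WT1, WT2 and WT3.

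**Figure D5:**
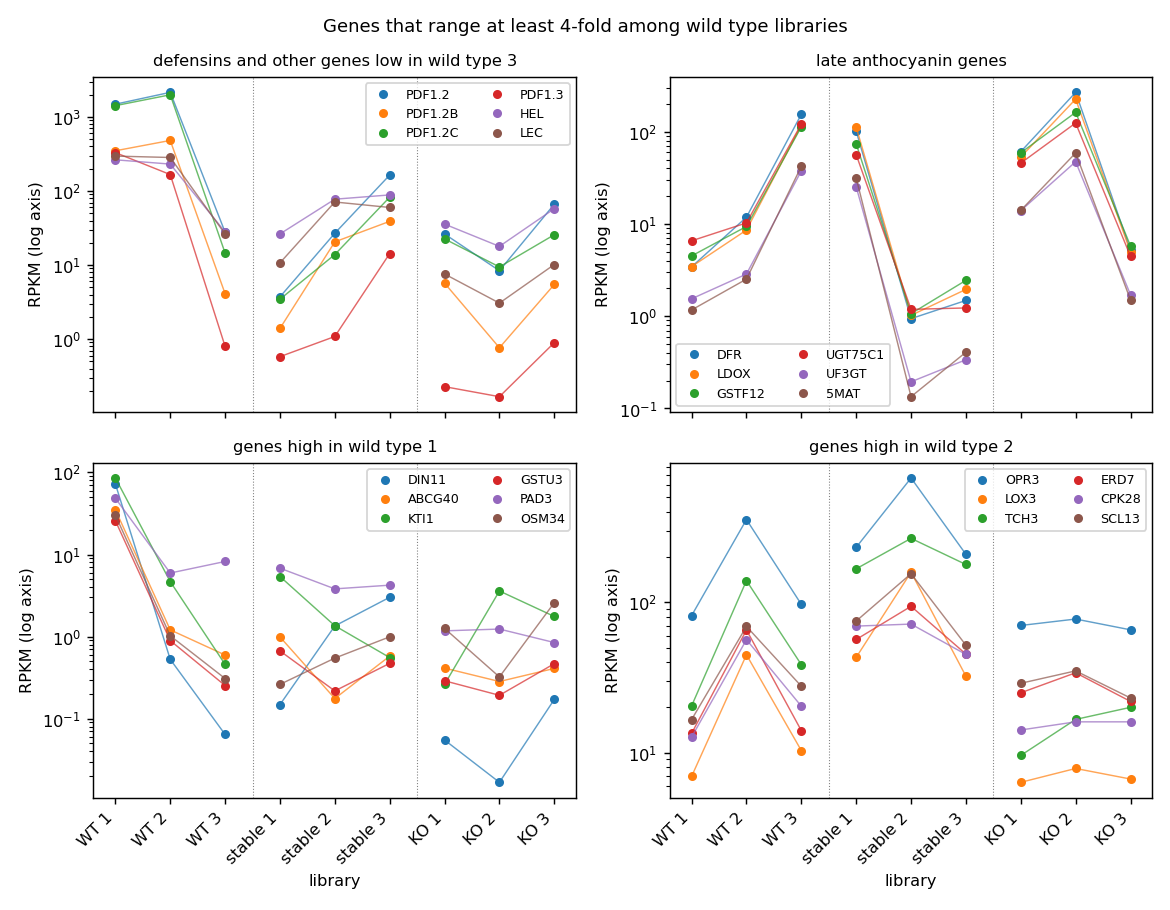
Level in RPKM (log axis) in each of the 9 libraries of 6 genes in each of 4 groups of genes with a 4-fold range in the wild type, with lines joining points of the same gene within a group and wild type at the left. Within the wild type, the defensins drop in WT3 and the late anthocyanin genes are highest there. Knockout-labelled replicate 2 stood above WT3 for each of the anthocyanin genes shown. The lower panels show genes high in WT1 and in WT2.

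Many of the variable genes were also variable outside the wild type. The median SD of the 20 most variable was 2.08 in the stable line and 0.96 in the knockout-labelled line, against 0.16 and 0.11 over all genes at 5 RPKM or more in the wild type. All 20 lay above the median of the stable line and 19 above that of the knockout-labelled line. In the knockout-labelled line the SDs of DFR and LDOX were 2.73 and 2.63. Those of DIN11, ABCG40, GSTU3 and PDF1.3 were 0.16, 0.22, 0.17 and 0.28, at means of 0.0812, 0.369, 0.317 and 0.430 RPKM. In the wild type the SDs of these last genes were 2.48 to 3.89. Of the 132 genes with a 4-fold range, 7 were called higher and 1 lower than the lines, a share near the 5.17% called over all genes tested. The 132 had to reach 5 RPKM in the wild type alone, which favours genes high there. The split between higher and lower is therefore a description. The 7 were PDF1.3, PDF1.2C, AT4G16260, LEC, PAD3, CYP71A13 and CAD8, a cinnamyl alcohol dehydrogenase. The 1 lower gene, MEE14, had 3.16, 18.7 and 14.2 RPKM in WT1, WT2 and WT3, against 148, 172 and 171 RPKM in the stable line and 22.0, 23.1 and 52.9 RPKM in the knockout-labelled line. Genes of these sets were chosen for mention after their values were seen. BGLU27 and TPS02, a terpene synthase gene, had 0 reads in WT3 but 3.25, 0.0822 and 0 and 11.1, 0.101 and 0 RPKM in WT1, WT2 and WT3.

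The 10 steadiest genes at 50 RPKM or more included genes for parts of the proteasome, ribosome and vacuolar proton pump. PAC1, a proteasome subunit, had 55.1, 56.0 and 55.4 RPKM in WT1, WT2 and WT3, and VHA-c3_2 and VHA-A3, of the proton pump, had 123, 126 and 124 RPKM in WT1, WT2 and WT3 and 71.8, 73.1 and 71.9 RPKM in WT1, WT2 and WT3. The ribosomal genes RPS27D, RPP1B and RPS2A, the ubiquitin-conjugating UBC36, the elongation factor EF1A4, AT5G46020 and AT5G49440 completed the 10, with SDs of at most 0.00741. These SDs were below the counting error of the genes, so that neither their order nor their place among the 10 is informative. Of the 10, RPS2A was called higher than the lines, by 0.39 (SE 0.08, adjusted p = 0.0383). The 12 commonly used reference genes had a median SD of 0.10, from 0.01 for EF1A4 to 0.26 for ACT8, and UBQ10, the most abundant, had 1493, 1233 and 1156 RPKM in WT1, WT2 and WT3. Of the 12, 0 were called against the lines, 3 had an unadjusted p under 0.05 and DESeq2 called 3. Among all 19409 genes tested, 4055 had such a p and DESeq2 called 1245 higher and 1114 lower.

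Reads that joined exons made up 50.6%, 50.8% and 51.0% of exon reads in WT1, WT2 and WT3. The mean was 50.8 ± 0.236% (SD, n = 3) in the wild type and 49.4 ± 1.20% (SD, n = 6) in the lines (exact two-sided permutation p = 0.0476, adjusted over 3 tests 0.143, smallest possible p 0.0238), and the groups overlapped. Reads filed as intron reads made up 4.74%, 3.79% and 4.93% of gene reads, a mean of 4.49 ± 0.613% in the wild type (SD, n = 3) and 4.50 ± 0.441% in the lines (SD, n = 6), with an exact permutation p of 0.952, adjusted 0.976. Features with no annotated exon are included in that share, and rRNA gave 44.6% to 57.1% of all intron reads. Over genes with exons the intron share was 2.04% to 2.08% in the wild type.

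Gene by gene, the median intron share was 1.44% over the 13690 genes with exons and 200 gene reads or more in each library, and 75 genes, 41 of them nuclear, had over 50%. The 5 chloroplast tRNA genes TRNA.1, TRNI.2, TRNK, TRNL.1 and TRNV.1 had 100%, since their exons had no reads. The highest nuclear genes were AT4G07835, AT5G36900, AT7SL-1, which encodes the RNA of the signal recognition particle, AT5G15360 and AT2G12935, at 93.9% to 99.8% in each library. The median exon-exon share was 60.0% over 6263 genes with at least 2 exons and 1000 exon reads in each library. It was 20.4% for 441 genes with 2 exons and 72.2% for 2979 genes with 10 or more. No exon-exon read was counted for 22 genes, among them PSBTN and PETE1, a photosystem II subunit and a plastocyanin. PSBTN had 11551, 15220 and 9345 exon reads in WT1, WT2 and WT3. The others with the most reads were ATEXO70H7, AT1G13360 and UGT1, of which ATEXO70H7 and UGT1 had under 1% of reads unique. In each of these named genes the annotated exons fill the whole span, 795 bases for PSBTN. No intron is left, so their count of 0 follows from the annotation and is not a result about splicing.

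Against the mean of the 2 lines, 482 genes were higher and 522 lower in the wild type of 19409 tested, and 4055 had an unadjusted p under 0.05. A change of 2-fold or more was found for 107 of the higher and 178 of the lower genes. DESeq2 called 1245 higher and 1114 lower. Scaling by library totals alone left 263 higher and 429 lower, so the share higher was 38.0% in place of 48.0%. Without WT1 there were 359 calls in place of 1004, without WT3 361, without knockout-labelled replicates 1 and 2 445 and 468, without WT2 or stable line replicate 3 622 each, without stable line replicate 2 653 and without stable line replicate 1 1596. Since 3 groups entered 1 fit, each comparison of the wild type with a line would share these wild type libraries.

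Clock genes separated the wild type from both lines. LHY, a morning-expressed repressor of the clock, had 139.6, 83.1 and 114 RPKM in WT1, WT2 and WT3, against 11.0, 6.50 and 7.23 RPKM in the stable line and 35.2, 34.4 and 22.8 RPKM in the knockout-labelled line, a log2 difference of 2.85 (SE 0.20, adjusted p = 6.39e-04). PRR5, a clock repressor made later in the day, had 0.421, 0.498 and 0.487 RPKM in WT1, WT2 and WT3, against 15.4, 13.8 and 11.7 RPKM in the stable line and 2.74, 3.87 and 3.70 RPKM in the knockout-labelled line, a difference of -3.84 (SE 0.17, adjusted p = 5.62e-05). ADO3, the flavin-binding F-box protein FKF1, had 0.163, 0.144 and 0.114 RPKM in WT1, WT2 and WT3, against 6.43, 6.50 and 5.43 RPKM in the stable line and 0.677, 0.858 and 0.926 RPKM in the knockout-labelled line, a difference of -3.97 (SE 0.20, adjusted p = 1.04e-04). The groups did not overlap for any of the 3, and their calls held in all 14 alternatives tried.

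Of the 14 clock genes tested, 3 rose (CCA1, LHY and RVE8) and 5 fell (PRR7, PRR5, PRR3, ELF3 and ELF4). Of all genes tested 2.48% were called higher and 2.69% lower. This list too was chosen with earlier results of these data known, so its counts are a description. RVE8 rose by 1.26 (SE 0.19, adjusted p = 0.0116) and PRR7 fell, with a log2 difference of -0.65 (SE 0.10, adjusted p = 0.0115). PRR3, ELF3 and ELF4 had differences of -1.80 (SE 0.17, adjusted p = 0.00207), -1.24 (SE 0.11, adjusted p = 0.00161) and -1.40 (SE 0.28, adjusted p = 0.0279). The morning gene CCA1 had 246, 144 and 207 RPKM in WT1, WT2 and WT3 and a difference of 0.99 (SE 0.22, adjusted p = 0.0410), with overlap, and its call was lost without WT1 (adjusted p = 0.153), WT3 (0.130) and 5 of the libraries of the lines. The ELF4 call was lost without WT1, WT2 or WT3 (0.109, 0.0817 and 0.0669). The time of day at harvest was not in the labels, and effects of genotype and of a difference in harvest time cannot be told apart.

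The iron deficiency and transport list was the other with many calls: 8 of 12 rose, 0 fell, and the median log2 difference was 1.19, against -0.01 over all genes tested. Of all genes tested 2.48% were called higher. The list was chosen with earlier results of these data known, so its count is a description. OPT3, a phloem transporter that carries iron, had 182, 131 and 184 RPKM in WT1, WT2 and WT3, against 108, 70.0 and 97.6 RPKM in the stable line and 99.8, 88.0 and 90.6 RPKM in the knockout-labelled line, a difference of 0.86 (SE 0.15, adjusted p = 0.0169). IMA3, a small peptide that promotes iron uptake, had 162, 94.1 and 151 RPKM in WT1, WT2 and WT3 with 71.2% of reads unique and a difference of 1.43 (SE 0.32, adjusted p = 0.0421). BHLH100, a transcription factor of the iron response, had 18.6, 5.37 and 5.20 RPKM in WT1, WT2 and WT3 and a difference of 3.56 (SE 0.73, adjusted p = 0.0317). Of these 3 sets of values none overlapped the lines.

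PYE, BHLH38, IMA1, IMA2 and FRO3 also rose, by log2 values of 0.64 to 2.56, with overlap for BHLH38, IMA1 and IMA2. All but FRO3 of the 8 calls were lost without WT1, with adjusted p of 0.0523 to 0.194, and without WT3 (0.0604 to 0.140). BHLH100, BHLH38 and IMA3 were also lost without WT2 (0.0510, 0.0755 and 0.0509), and several of the 8 without libraries of the lines. The 8 were highest in WT1 in 7 cases, OPT3 being highest in WT3. BTS, an iron-binding regulator that restrains the response, had 93.0, 53.4 and 54.4 RPKM in WT1, WT2 and WT3 and was not called (adjusted p = 0.0669).

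Other genes with the largest differences covered stress and transport. NHL10, a defence-related gene, had 8.09, 1.15 and 0.472 RPKM in WT1, WT2 and WT3, a difference of 4.26 (SE 0.90, adjusted p = 0.0357). Its call was lost without WT1 (adjusted p = 0.161) and was kept in 8 of 14 alternatives. MPT2, a mitochondrial phosphate transporter, had 7.24, 1.71 and 3.29 RPKM in WT1, WT2 and WT3 and rose by 2.82 (SE 0.46, adjusted p = 0.0152), and GSTU24, a glutathione transferase, had 18.4, 14.5 and 10.1 RPKM in WT1, WT2 and WT3 and rose by 2.43 (SE 0.37, adjusted p = 0.0114). The MPT2 call was lost without WT1 (0.0517), while that of GSTU24 held in all 14 alternatives. DREB1A, the cold-response factor CBF3, had 0.234, 0.285 and 0.391 RPKM in WT1, WT2 and WT3, against 10.4, 6.91 and 7.70 RPKM in the stable line and 5.34, 5.30 and 4.65 RPKM in the knockout-labelled line, a difference of -4.39 (SE 0.19, adjusted p = 5.62e-05). DJC76, a DnaJ protein, had 1.55, 2.08 and 3.32 RPKM in WT1, WT2 and WT3, against 57.6, 35.4 and 32.6 RPKM in the stable line and 21.3, 23.3 and 15.4 RPKM in the knockout-labelled line, a difference of -3.61 (SE 0.29, adjusted p = 0.00122). AT1G10770, a pectin methylesterase inhibitor family gene, had 0.0573, 0.220 and 0.0783 RPKM in WT1, WT2 and WT3, against 1.48, 0.740 and 1.52 RPKM in the stable line and 1.25, 0.791 and 5.27 RPKM in the knockout-labelled line, and its call (log2 difference -3.79 (SE 0.83, adjusted p = 0.0397)) was lost without any 1 wild type library, with adjusted p of 0.0690 to 0.144.

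The remaining lists had few calls, to be read beside the 2.48% called higher and 2.69% lower over all genes tested. In leaf senescence 2 of 15 tested rose, NAP by 0.88 (SE 0.20, adjusted p = 0.0411) and WRKY45 by 0.94 (SE 0.20, adjusted p = 0.0357), both with overlap and both lost without WT1 (adjusted p = 0.136 and 0.137). Other libraries mattered too, and the calls were kept in 4 and 7 of 14 alternatives. In the heat shock list 1 of 7 rose, HSP17.6A, by 2.57 (SE 0.43, adjusted p = 0.0170), which was lost without WT1 (0.0703) or WT3 (0.0685). Of 22 immune receptors, SNC1 was the 1 that fell, with a log2 difference of -0.46 (SE 0.11, adjusted p = 0.0460), a call kept in 2 of 14 alternatives. The salicylic acid, jasmonate, myrosinase, metallothionein and flowering lists had 0 calls. Of their 14, 17, 9, 8 and 12 members tested, 3, 2, 0, 1 and 3 had an unadjusted p under 0.05 and DESeq2 called 1, 1, 0, 1 and 1. For all 19409 genes tested these counts were 4055 at such a p and, by DESeq2, 1245 higher and 1114 lower.

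Levels in these lists describe the leaf. The leading salicylic acid gene was PR2, a glucanase, with 61.7, 62.3 and 37.8 RPKM in WT1, WT2 and WT3, and PR1, the usual marker, had 5.39, 6.87 and 5.13 RPKM in WT1, WT2 and WT3. In jasmonate synthesis LOX2 and AOS had 710.2, 538 and 339 RPKM in WT1, WT2 and WT3 and 297, 394 and 279 RPKM in WT1, WT2 and WT3, and JAZ9, a repressor of the response, 217, 369 and 253 RPKM in WT1, WT2 and WT3. TGG1, the main myrosinase, had 614, 444 and 184 RPKM in WT1, WT2 and WT3 and was lowest in WT3 like TGG2. Of the immune receptors ZAR1, RPP8 and RPP13 led with 60.1, 40.2 and 33.4 RPKM, the first with 27.0% of reads unique. The heat shock genes were led by HSP70-4 with 333, 135 and 222 RPKM in WT1, WT2 and WT3, lowest in WT2.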

How the data were processed

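RNA of leaves was sequenced in 9 libraries, 3 per group, of which the 3 wild type libraries are described. Per the labels, total RNA was purified with a column kit and libraries were made with an NEB Next Ultra kit, and per the submitters' processing notes the genome build was TAIR10. Neither the aligner, the counting tool nor the use of strand is stated in the labels, so levels of overlapping and antisense genes are uncertain. The deposited table holds counts per gene made by the authors: exon, unique exon, intron, exon-exon and gene reads, beside other descriptive columns of the authors such as positions. The authors' deposited RPKM equalled exon reads per kilobase of exon over 1 divisor per library, to a relative tolerance of 1e-06, and gene reads were used in their place for features without exons. No per-sample column was left unmatched to a sample (0 columns).

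The members and gene lists were chosen with earlier results of these data known. Exon read counts were tested with edgeR 4.0.16 in R 4.3.3 (TMM scaling, filterByExpr with a minimum count of 10, total of 15 and share of 0.7, quasi-likelihood test), with all 3 groups in 1 fit and no covariate, for the wild type minus the mean of the 2 lines. A call is a Benjamini-Hochberg adjusted p under 0.05, and SEs are of the log2 difference. DESeq2 1.42.0, library totals alone, no filter, unique reads, a replicate term and leaving out each library were the alternatives. In simulated data of 19409 genes for this comparison, 56 of 98 genes changed 2-fold and 89 of 100 changed 4-fold were called. Shares of reads were compared by exact permutation of libraries. Tables were made with Python 3.11.15, pandas 2.3.3, numpy 2.4.6 and scipy 1.17.1, and plots with matplotlib 3.10.9.

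Named genes are the 25 highest by mean RPKM and the 5 highest of the organelles; up to 4 leading members of each list and its members at 0 reads, of which 1 is not reported here; 10 undetected genes highest in the lines; the 20 most variable at 5 RPKM or more with 5 per library furthest above and below; the 10 steadiest at 50 RPKM or more; the 10 highest intron shares and the 5 lowest exon-exon shares; and the 5 largest called rises and falls without overlap. Other genes, such as called list members, members of the patterns by library and the GCCGCC motif, were chosen after their values were seen. Intervals and floors of 3 reads cover counting error only.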

Additional observations from a re-analysis of the deposited data

How the results depend on the processing

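The 1004 calls of wild type against the lines became 2359 with DESeq2, 876 with no filter on low counts, 1014 with unique reads and 692 (263 higher and 429 lower) with library totals alone, and 359 to 1596 when 1 library was left out. For the 41 named genes with a call, 573 values were computed under the alternatives: 397 kept the call, 176 lost it and 0 changed direction. A replicate block gave 702 calls (328 higher and 374 lower). Correlations of deviations between same-numbered libraries ran from -0.439 for WT3 with knockout-labelled replicate 3 to 0.516 for replicates 3 of the 2 lines. For libraries of different number they ran from -0.600 for stable line replicate 1 with knockout-labelled replicate 3 to 0.542 for WT3 with stable line replicate 1. With 3 libraries per group, whether the numbers pair the libraries cannot be told from these values.

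The 132 genes with a 4-fold range became 76 with a pseudocount of 5 CPM, 203 at a mean of 1 RPKM or more and 35 to 109 without 1 library. The difference in the share of the 100 leading genes was 0.0295 percentage points, and -0.503 to 0.692 without 1 library. That in intron share was -0.0164 points, 0.0630 without the libraries numbered 2 and -0.240 to 0.333 without 1 library. The exon-exon share kept its direction, at 0.922 to 1.61 points. The cause of these changes was not tested. Of the 25 leading features, those without annotated exons included, 21 to 25 were kept under every alternative tried. This set holds the rRNA features RRN23S.1, AT2G01010 and RRN16S.1, so it differs from the 25 genes with exons described above. With unique exon reads the rRNA features drop out by construction, and so does LHCB1.5, with 0.00183% of its exon reads unique. Depth limits levels near the floor of 3 reads, and 3 libraries limit every SD.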
